A study of Mus musculus with 4 samples.

Results

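This section describes chromatin accessibility around 10 mouse genes of the Wnt and beta-catenin pathway in DN3 thymocytes and naive CD4 T cells with and without Scd1. They are Ctnnb1 and Ctnnd1, the destruction-complex genes Axin1, Axin2, Apc, Gsk3b, Csnk1a1 and Btrc, and the Wnt lipidation and export genes Porcn and Wls. The genes were chosen by their place in the pathway, out of 21631 protein-coding genes with coordinates. An open region was assigned to a gene when it overlapped the RefSeq gene body or the 10 kb on either side (mouse build mm10, GRCm38). Of 90270 joint regions in the data, 90 met this rule. A joint region is the stretch covered by overlapping regions of the 4 lists, and it counts once however many lists hold it.

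The study took thymic DN3 cells and splenic naive CD4 T cells of SCD1 knockout mice and littermate controls. Cells that had received no treatment went into ATAC-seq, which reads open DNA through transposase insertion. DN3 cells were sorted as Lin-CD4-CD8-CD44-CD25+ after bead depletion of lineage and CD4 positive cells, and naive CD4 T cells came from a magnetic bead kit. There was 1 library in each of the 4 groups: DN3 control, DN3 Scd1-deficient, naive CD4 control and naive CD4 Scd1-deficient. The sample titles mark the controls HZ and the deficient mice KO. The labels do not say what HZ stands for, whether the deletion covers the whole body or selected cells, or how old the mice were and how many gave each library. With 1 library a group there is no replicate spread and no test. Every difference below is a difference between libraries, and every interval covers counting error only.

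The deposited lists held 76828 regions in the DN3 control, 76450 in the DN3 Scd1-deficient, 46585 in the naive CD4 control and 51309 in the naive CD4 Scd1-deficient library. The narrowest regions measured 217, 214, 275 and 225 bp in that order, so a narrow site could enter some lists and not the naive control list. Over the Scd1 gene itself, 1 region was called in each list except the DN3 Scd1-deficient one, which held 2, and the part deleted is not given, so this does not check the genotype. All 8 DN3 markers had a region within 1 kb of a gene end in both DN3 lists, while 5 and 6 did in the naive control and Scd1-deficient lists. All 8 naive CD4 markers had one in every list. Cd3e and Bcl11b are in both of these marker lists. Of 6 B cell markers, 3 had one in each list, as did 3 of 6 myeloid markers, 2 of 5 erythroid and stromal markers, and 1 or 2 of 4 NK markers. Of 4 CD8 and double-positive markers, 4 had one in both DN3 lists and 3 in both naive lists. Among all protein-coding genes the shares were 66.7% and 66.5% in the DN3 control and Scd1-deficient lists, and 57.0% and 58.6% in the naive ones. The part of other cell types in the results was not tested. In bulk libraries a site open in fewer cells and a site less open in each cell cannot be told apart.

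Beta-catenin, the product of Ctnnb1, links cadherins to the cytoskeleton and also carries the Wnt signal to TCF and LEF factors in the nucleus. Without a signal, Axin and Apc hold it while the kinases encoded by Csnk1a1 and Gsk3b phosphorylate it, and the ubiquitin ligase subunit encoded by Btrc then marks it for destruction. Wnt proteins leave the cell only after Porcn attaches a monounsaturated fatty acid, a product of Scd1, and Wls carries the acylated protein to the surface. The pathway acts with Tcf7 and Lef1 in early thymocyte development, and Axin2 is a widely used target gene of it.

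RefSeq start windows (GRCm38.p6, 250 bases before to 50 after a listed start) were found for 5 of the 10 genes, Ctnnb1, Ctnnd1, Axin2, Gsk3b and Wls. The windows below were picked to show 2 kinds: those of Axin2, Wls and Ctnnb1 lay under a region in all 4 lists, and those of Ctnnd1 did not. The Gsk3b window is not printed and also lay under a region in all 4 lists. Each is written from the 5′ to the 3′ end of its strand, and capitals mark a GC box, GGGCGG or its reverse complement CCGCCC. Each window was also searched on both strands for the TCF and LEF letters CTTTGAA and CTTTGAT, and none held a match. The GC box was in 35.6% of all 32817 windows of this length in the table and the TCF and LEF letters were in 8.65%. The motifs as searched can share a single G or C at their ends. With no TCF or LEF match, no overlap occurred in these windows. A match describes letters and not binding.
Ctnnb1, chr9:120933150-120933449, plus strand: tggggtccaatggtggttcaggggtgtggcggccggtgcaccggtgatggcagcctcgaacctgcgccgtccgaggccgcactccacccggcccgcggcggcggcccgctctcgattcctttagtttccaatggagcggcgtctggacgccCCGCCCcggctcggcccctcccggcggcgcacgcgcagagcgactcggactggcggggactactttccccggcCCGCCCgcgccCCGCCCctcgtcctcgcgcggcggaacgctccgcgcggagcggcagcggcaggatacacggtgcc
Axin2, chr11:108920099-108920398, plus strand: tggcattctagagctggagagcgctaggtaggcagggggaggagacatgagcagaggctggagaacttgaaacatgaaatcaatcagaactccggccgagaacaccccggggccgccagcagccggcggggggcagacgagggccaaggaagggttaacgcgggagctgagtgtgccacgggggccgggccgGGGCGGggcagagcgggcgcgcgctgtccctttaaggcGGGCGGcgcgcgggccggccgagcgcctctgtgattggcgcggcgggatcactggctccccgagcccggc
Wls, chr3:159839400-159839699, plus strand: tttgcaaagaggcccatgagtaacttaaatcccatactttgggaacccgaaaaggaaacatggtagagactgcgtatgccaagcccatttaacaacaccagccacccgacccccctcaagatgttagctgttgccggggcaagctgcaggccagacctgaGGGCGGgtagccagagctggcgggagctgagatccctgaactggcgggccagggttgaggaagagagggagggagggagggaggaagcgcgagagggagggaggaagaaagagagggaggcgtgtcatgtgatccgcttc
Ctnnd1, upper start, chr2:84658928-84659227, minus strand: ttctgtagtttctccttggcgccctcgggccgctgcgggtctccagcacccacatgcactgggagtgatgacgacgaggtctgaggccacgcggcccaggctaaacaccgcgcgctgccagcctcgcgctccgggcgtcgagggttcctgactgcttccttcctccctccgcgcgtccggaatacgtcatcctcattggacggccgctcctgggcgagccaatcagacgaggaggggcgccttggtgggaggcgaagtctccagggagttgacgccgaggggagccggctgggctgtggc
Ctnnd1, inner start, chr2:84650691-84650990, minus strand: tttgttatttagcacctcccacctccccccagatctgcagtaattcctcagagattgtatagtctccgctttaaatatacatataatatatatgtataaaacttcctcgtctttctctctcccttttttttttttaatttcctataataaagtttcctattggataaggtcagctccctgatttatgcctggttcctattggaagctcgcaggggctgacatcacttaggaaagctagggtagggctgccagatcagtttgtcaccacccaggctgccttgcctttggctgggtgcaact
The windows ranged widely in composition. The Ctnnb1 window held 75.3% G and C with 46 CpG and 3 GC boxes, the Axin2 window 70.0% with 31 CpG and 2 GC boxes, and the Wls window 58.0% with 11 CpG and 1 GC box. The median window had 52.7% and 7 CpG. The upper Ctnnd1 start had 67.7% and 30 CpG and the inner one 42.7% and 3 CpG, and neither held a GC box. The Gsk3b window, under a region in all 4 lists, had 63.0% and 21 CpG and held no GC box either.

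Most of the 90 joint regions were either common to both cell types or found in DN3 cells. In all, 34 of 90 were called in all 4 lists, 37.8% (Wilson 95% interval 28.5 to 48.1), beside 41.5% of all joint regions. Another 25, or 27.8% (19.6 to 37.8), were called in both DN3 lists and neither naive list (DN3-restricted), beside a background of 28.3%. A single region, 1.11% (0.196 to 6.03), was called in both naive lists and neither DN3 list (naive-restricted), beside 5.11%. Among the joint regions at or within 10 kb of any protein-coding gene, these shares were 44.2%, 26.6% and 4.75%. The remaining 30 mixed genotypes within a cell type, and 22 of these were called in 1 list alone. For all joint regions the remaining share is what the background shares above leave, and it was smaller than at these genes. The share called in 1 list alone was not counted over all joint regions, so the 22 cannot be judged. The shares of common and DN3-restricted regions were thus near those of the genome. Btrc alone gave 9 of the 25 DN3-restricted regions, and without it the share was 16 of 75, 21.3%.

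**Figure D1:**
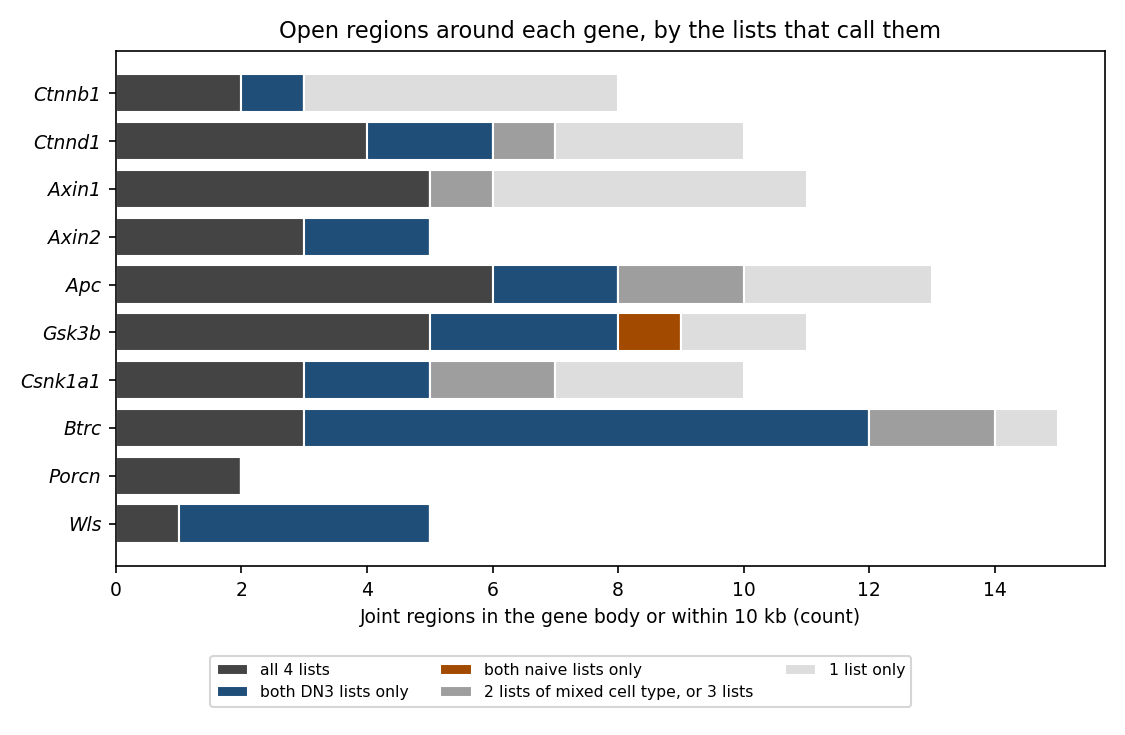
Number of joint regions in the gene body or within 10 kb of each of the 10 genes (horizontal axis, count), split by the lists that called them. Btrc has 9 regions called in both DN3 lists only and Wls 4 of its 5, while Axin1 has none among 11.

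Where a region lay went with how widely it was called. Of 23 regions within 1 kb of an annotated gene end or listed start, neighbouring genes included, 18 were in all 4 lists, 78.3% (58.1 to 90.3), beside 70.0% of all such regions, and 2 were DN3-restricted, 8.70% (2.42 to 26.8) beside 16.6%. Of 58 regions further inside a gene, 14 were in all 4 lists, 24.1% (15.0 to 36.5), beside 32.6%, and 22 were in both DN3 lists only, 37.9% (26.6 to 50.8), beside 31.4%. The remaining 9 lay outside genes but within 10 kb, with 2 in all 4 lists and 1 DN3-restricted, 22.2% and 11.1% beside 38.5% and 27.5%. By gene, a region within 1 kb of an end of Ctnnb1, Apc, Gsk3b, Csnk1a1, Btrc, Porcn and Wls was called in all 4 lists. The count was 8 of 10 genes in the DN3 control list and 7 of 10 in each other list, beside 66.7%, 66.5%, 57.0% and 58.6% of all protein-coding genes in list order. Axin1 was the gene called in the DN3 control list only, and Ctnnd1 and Axin2 had none in any list. These gene counts used the annotated ends and not the listed starts. The listed start of Axin2 lay under a region in all 4 lists. The inner listed start of Ctnnd1 did so in both DN3 lists and the naive Scd1-deficient list, and no start was listed for Axin1.

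Between genotypes, most regions of these genes had a counterpart, and those without one were mostly weak. In DN3 cells, 9 of 75 control regions (12.0%, 6.44 to 21.3) did not overlap any region of the Scd1-deficient list, beside 10.4% of all regions in the list. Of 74 Scd1-deficient regions, 8 (10.8%, 5.58 to 19.9) had no counterpart in the control list, beside 9.48%. Both shares were near the background, and with every list at 46576 regions they were 6.25% and 0%, beside 6.72% and 6.53%. In naive CD4 cells, 7 of 44 control regions (15.9%, 7.93 to 29.4) had none, beside 5.77%, and 9 of 49 Scd1-deficient regions (18.4%, 9.98 to 31.4), beside 12.4%. The control share in naive cells stood above its background, and 4 of its 7 regions belonged to the Ctnnd1 locus, so they are not independent of each other. The naive shares changed with the list settings but stayed inside their counting intervals. With −log10 q of at least 5 in every list they were 25.0% of control and 14.6% of Scd1-deficient regions, beside 5.46% and 10.3% of all. With every list at 46576 regions they were 27.3% and 12.8%, beside 9.63% and 7.90%, so which genotype had the higher share turned.

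The strength of these unmatched regions is given as the authors' −log10 q, the peak caller's false discovery rate on a log scale, which rises with depth. Its median was 4.41 for the 9 DN3 control regions without a counterpart and 42.6 for the 66 with one. For the DN3 Scd1-deficient list the medians were 2.82 and 44.0, for the naive control list 6.52 and 80.7, and for the naive Scd1-deficient list 8.15 and 64.6. In each list the unmatched regions were far weaker than the matched ones, and this also held over all regions of the lists. There the unmatched and matched medians were 6.31 and 40.6 in the DN3 control list and 5.35 and 35.8 in the DN3 Scd1-deficient list. They were 6.13 and 59.9 in the naive control list and 7.39 and 52.3 in the naive Scd1-deficient list. Some unmatched regions of these genes were called in the other cell type as well. The counts were 2 of 9, 3 of 8, 1 of 7 and 5 of 9 in that order. This share was not counted over all unmatched regions of the lists, so these counts cannot be judged.

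The fold over local background at the summit, again the authors' value, was compared for the joint regions that both genotypes held. Each ratio was divided by the median ratio over all shared regions, which differed from 1 by 0.13 on the log2 scale in naive cells and by -0.01 in DN3 cells. In DN3 cells 1 of 64 shared regions was more than 1.5-fold apart, 1.56% beside a background of 2.25%, and it was lower in the Scd1-deficient library (1.54% of all were lower and 0.712% higher). In naive CD4 cells 2 of 37 were, 5.41% (1.5 to 17.7) beside 3.79%. One of the 2 was higher and one lower in the Scd1-deficient library, beside 2.65% and 1.15% of all. The fold at these genes was thus close between genotypes, with counts near those of the genome. The 3 regions were at Ctnnd1 in DN3 cells and at Gsk3b and Porcn in naive cells, and are described with their genes.

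**Figure D2:**
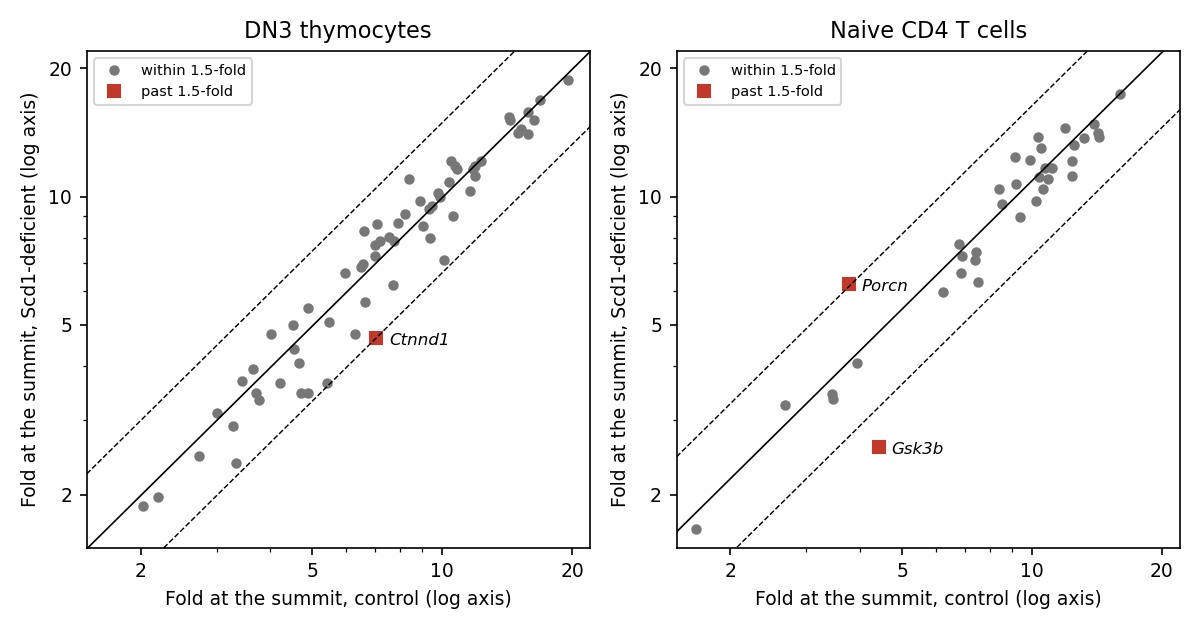
Fold over local background at the summit in the control library (horizontal, log axis) and the Scd1-deficient library (vertical, log axis) for the joint regions of the 10 genes called in both, 64 in DN3 and 37 in naive CD4 cells. The solid line is the median ratio over all shared regions and the dashed lines lie 1.5-fold from it; 1 DN3 and 2 naive regions, named by gene, lie past them.

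Between cell types the fold differed more often. In the control mice 7 of 36 shared regions (19.4%, 9.75 to 35.0) were more than 1.5-fold apart, beside 23.9% of all, 3 of them higher in DN3 and 4 higher in naive cells, beside 14% and 9.95% of all. In Scd1-deficient mice 7 of 40 (17.5%, 8.75 to 31.9) were, beside 23.4%, with 4 higher in DN3 and 3 in naive cells, beside 13.1% and 10.3%. Regions of Ctnnd1, Axin1, Axin2 and Porcn were past the limit in both genotypes.

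Ctnnb1, the gene of beta-catenin itself, was open at both ends in every library. The region over its start (chr9:120933035-120936146) had a fold of 9.79 and 10.2 in the DN3 control and Scd1-deficient libraries and of 8.40 and 10.4 in the naive ones. The reads or fragments piled up at its summit, recovered as a whole number from the deposited fold and p-value, were 391, 393, 557 and 532. In the naive control list the region ran 3112 bp, against 1570 bp in the naive Scd1-deficient list. Both DN3 lists held a separate second peak inside that stretch, of fold 1.89 and 2.24, so the wider naive control region covers ground that the DN3 lists call as 2. At the far end (chr9:120960543-120962860) the strongest peaks had folds of 9.36, 8.0, 7.51 and 6.30, lower in the Scd1-deficient library of each cell type by less than 1.5-fold.

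The other 6 regions of Ctnnb1 were weak or restricted. One inside the gene (chr9:120947581-120948110) was called in both DN3 lists only, with −log10 q of 9.99 and 11.2. The strongest restricted to a genotype lay below the gene at chr9:120923717-120924113 and was called in the naive control list alone, with a fold of 6.21, −log10 q of 17.8 and a pileup of 37 (exact Poisson 95% interval 26.1 to 51.0). Its nearest edge was 9287 bp from the gene, just inside the 10 kb window. Just outside, a naive Scd1-deficient region lay 10487 bp from the other end, with −log10 q of 1.96. Inside the gene 3 regions were called in the naive Scd1-deficient list alone, the strongest at chr9:120940803-120941177 with −log10 q of 8.21, and 1 in the DN3 Scd1-deficient list alone (chr9:120945587-120945851, 3.23).

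Ctnnd1 encodes p120-catenin, which holds cadherins at the membrane and shares the armadillo repeats of beta-catenin. Its upper, CpG-rich listed start lay under no region in any list: the nearest region ended 1204, 1225, 1197 and 1045 bp from it in list order. Across all start windows, 47.7%, 47.4%, 40.8% and 41.7% were overlapped. The inner, CpG-poor start was overlapped by a region in 3 lists, with −log10 q of 23.7 in the DN3 control, 8.82 in the DN3 Scd1-deficient and 5.91 in the naive Scd1-deficient library. In the naive control library the nearest region was 759 bp away. The window without a region is thus the CpG-rich one of the pair printed above. Beyond the upper end, in Btbd18, a region at chr2:84660022-84660800 was called in all 4 lists, with folds of 10.6, 9.01, 12.5 and 13.2.

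**Figure D3:**
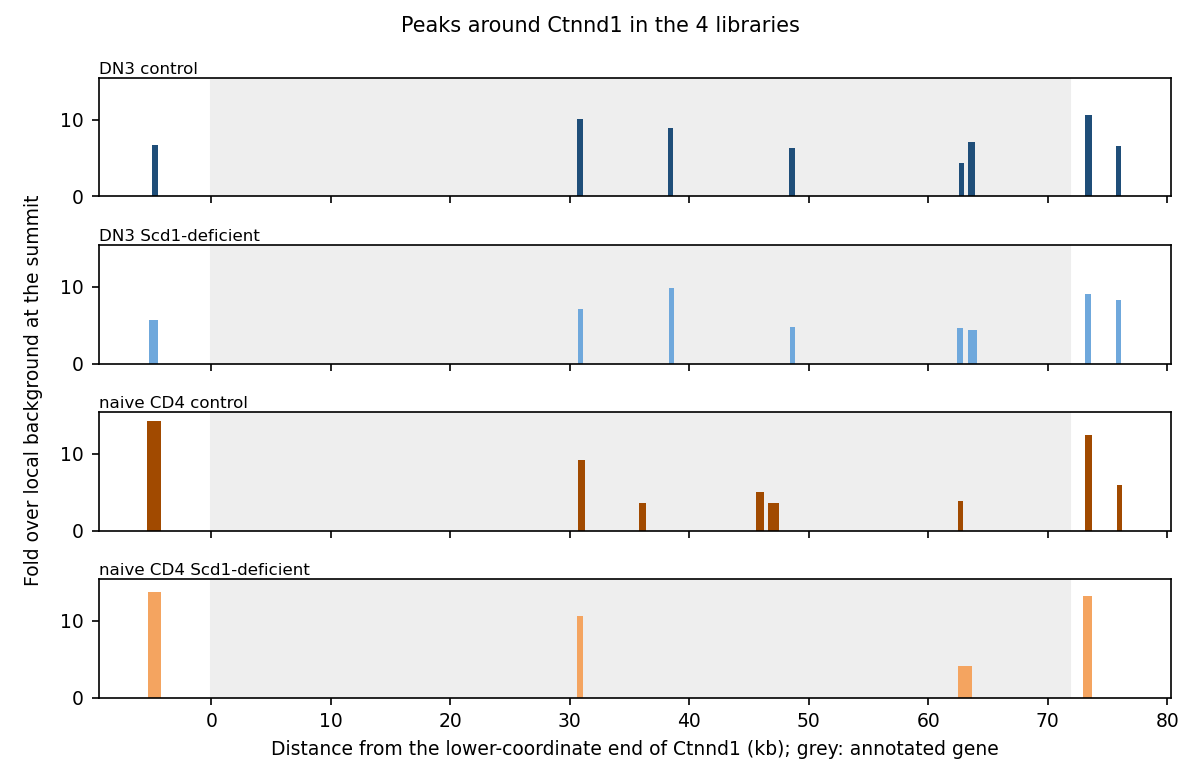
Peaks around Ctnnd1 in the 4 libraries, by distance from the lower-coordinate end of the gene (horizontal, kb; the gene is on the minus strand, grey marks its body) and fold over local background at the summit (vertical, bars from 0). The naive control library has 4 bars, between 36 and 76 kb, that the naive Scd1-deficient library lacks.

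In naive cells 4 joint regions of Ctnnd1 were in the control list and not in the Scd1-deficient list, and 0 the other way round. Of 17284 genes with a joint region, 2 (0.0116%), Ctnnd1 included, had at least as many of the first kind and none of the second. This limit was set from the Ctnnd1 counts themselves. Genes with fewer than 4 joint regions could not meet it, and the share was not matched for region number. At chr2:84632711-84633359 the naive control fold was 5.07, with a pileup of 30 and −log10 q of 12.1. At chr2:84622873-84623488 and chr2:84633679-84634630 it was 3.60, each with a pileup of 21 and −log10 q of 5.65. These 3 were called in no other library. The fourth, chr2:84662846-84663309 in Btbd18, was also in both DN3 lists, with folds of 6.58 in the DN3 control, 8.33 in the DN3 Scd1-deficient and 5.89 in the naive control library. The count was 4 with −log10 q of at least 5 in every list, and 5 with every list at 46576 regions, the length of the shortest, which is the naive control list. Over the gene body only it was 3.

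Of the shared regions of the 10 genes, one at Ctnnd1 was the furthest toward naive cells. At chr2:84581752-84582912, below the far end of the gene, the fold was 6.64 and 5.66 in the DN3 libraries and 14.3 and 13.8 in the naive ones. The pileups there were 37, 30, 282 and 142. The DN3 to naive ratio, centred as above, was 0.456 in control and 0.436 in Scd1-deficient mice, and 2.11% and 1.72% of all shared regions lay at least as far from 1. In the other direction chr2:84625294-84625765 inside the gene was called in both DN3 lists only, with folds of 8.88 and 9.79. Inside the gene, the strongest region called in all 4 lists, chr2:84617717-84618389, had folds of 10.1, 7.12, 9.16 and 10.7. The DN3 region past 1.5-fold between genotypes was chr2:84649557-84651189 (ratio 0.665). That ratio compares different places: the strongest peak was at the inner start in the control list (fold 7.04) and was the neighbouring peak in the Scd1-deficient list (fold 4.65). At the inner start alone the DN3 folds were 7.04 in the control and 4.32 in the Scd1-deficient list. The pileups there were 45 (32.8 to 60.2) and 26 (17.0 to 38.1), with overlapping intervals. At the neighbouring peak the folds were 4.37 and 4.65.

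Axin1 encodes the scaffold that limits the destruction complex. Its strongest region inside the gene by −log10 q, chr17:26138067-26139540, lay 7.59 kb from the lower end, over a listed start of the predicted gene Gm46600. The fold there was 9.87, 9.97, 10.2 and 9.77, nearly level over the 4 libraries, with pileups of 535, 489, 930 and 614. A second region inside the gene, chr17:26167802-26168835, had folds of 16.3, 15.1, 13.2 and 13.7. At the lower gene end a region at chr17:26131984-26132335 was called in the DN3 control list alone, with a fold of 4.02 and a pileup of 22 (13.8 to 33.3). No start of Axin1 itself was listed, so which of these regions lies at its start is not known here. Axin1 had no region restricted to both DN3 lists, although 2 of its 11 joint regions were in the DN3 control list alone and 2 in the DN3 Scd1-deficient list alone. At least as many genotype-restricted DN3 regions were found at 596 of 17284 genes, 3.45%. That limit was set from the Axin1 count itself. Genes with few joint regions could not reach it, and this share was not matched for region number.

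The strongest genotype-restricted regions of Axin1 were in the Scd1-deficient lists. In DN3 cells chr17:26175175-26175449 had a fold of 5.66, a pileup of 30 and −log10 q of 13.6. At 275 bp it is as narrow as the narrowest naive control region. In naive cells chr17:26160185-26161046, 862 bp wide, had a fold of 4.73 and −log10 q of 8.15 and was called in no other list. Another, chr17:26191493-26191952, had a fold of 6.23 and −log10 q of 14 and overlapped regions of both DN3 lists, whose folds were 7.52 and 8.04. Within the window, a region in the neighbour Arhgdig (chr17:26201003-26201850) was higher in DN3 cells, with folds of 5.48 and 5.08 against 2.67 and 3.25.

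Axin2, both a scaffold and a target of the pathway, had 5 joint regions and none that differed between genotypes. The region over its listed start (chr11:108920063-108921339) had folds of 9.46, 9.50, 10.6 and 10.4. Its pileups were 457, 437, 926 and 674, higher in the naive libraries, which also had the higher local background there. A second region, chr11:108909950-108911453, lay over listed starts of the predicted gene Gm46298, 7.13 kb below the annotated gene body. Its folds were 6.97 and 7.24 in DN3 and 11.1 and 11.7 in naive cells, a centred ratio of 0.615 in control and 0.656 in Scd1-deficient mice. Away from the starts, chr11:108925284-108925611 was called in both DN3 lists only, with folds of 3.43 and 3.69 and −log10 q of 31.5 and 35.2. It measured 299 and 270 bp, near the narrowest width of the naive control list. The start of this target gene was thus open to a similar fold in all 4 libraries.

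Apc, the scaffold mutated in familial colon polyposis, was open at its lower end in all 4 libraries (chr18:34220514-34222301), with folds of 10.7, 11.8, 10.7 and 11.7. Of its 13 joint regions, 6 were in all 4 lists. The strongest away from the gene ends, chr18:34259057-34259707, had folds of 11.6, 10.3, 10.3 and 13.8. The strongest of the 2 DN3-restricted regions was chr18:34256016-34256348, with folds of 7.08 and 8.65 and −log10 q of 46.5 and 58.2. A region above the gene, chr18:34324575-34325113, was the single one of the 90 called in both Scd1-deficient lists and neither control list. The share of this pattern over all joint regions was not counted, so the count cannot be judged. Its folds were 3.11 in DN3 and 4.94 in naive cells, with pileups of 16 and 22 and −log10 q of 3.51 and 8.94. The strongest DN3 control region without a counterpart was chr18:34239729-34239946, of 218 bp, with −log10 q of 6.31. The strongest region in the window by fold, 15.8, 15.8, 16.0 and 17.4, lay at the end of the neighbour Srp19 (chr18:34330487-34331544).

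Gsk3b encodes a kinase that marks beta-catenin for degradation. Its start region (chr16:38088189-38090040) had a fold of 6.48, 6.84, 7.41 and 7.40. The pileups were large, 660, 706, 1369 and 897, and the local background was large too, 101, 102, 184 and 120.3, and the fold is the pileup over that background. The region ranked above 95.9%, 97.3%, 99.3% and 97.4% of its list by −log10 q. Inside the gene, chr16:38239370-38240338 was the strongest region by −log10 q in DN3 cells (179 and 157), and its folds were 16.9 and 16.9 there and 11.9 and 14.5 in naive cells. In naive cells the strongest by −log10 q was chr16:38131000-38132467 (119.6 and 110.3), with folds of 10.5, 12.1, 9.89 and 12.2 in list order. The strongest DN3-restricted region was chr16:38168763-38169250, with folds of 7.69 and 6.21.

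The single naive-restricted region of the 90 also lay in Gsk3b, at chr16:38110575-38111188. In the naive control library its fold was 4.41, its −log10 q 9.05 and its pileup 26 (17.0 to 38.1). In the naive Scd1-deficient library they were 2.58, 1.55 and 11 (5.49 to 19.7). The centred ratio of Scd1-deficient to control was 0.535, and 0.121% of all shared naive regions lay at least as far from 1. The summits lay apart, at chr16:38110853 in the control and chr16:38111066 in the Scd1-deficient list, so the ratio compares different places. The intervals of the pileups overlap slightly, and the Scd1-deficient value is near the threshold of its list. In DN3 cells the genotype-restricted regions of the window lay in the neighbour Nr1i2, the strongest at chr16:38248454-38248979 in the control list, with −log10 q of 4.41.

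Csnk1a1 encodes the priming kinase of beta-catenin. Its lower-end region (chr18:61554718-61556075) had folds of 10.8, 11.6, 10.4 and 11.1 and pileups of 504, 498, 858 and 659. A region below the gene, chr18:61548589-61550195, was in all 4 lists, and at its lower summit the folds were 7.96, 7.72, 9.14 and 12.4. A second summit in it was called in 3 lists, with folds of 7.89, 8.66 and 5.07 in the DN3 control, DN3 Scd1-deficient and naive Scd1-deficient libraries. The strongest DN3-restricted region, chr18:61556470-61557110, had folds of only 2.19 and 1.97 beside the start region. In naive cells the genotypes traded weak regions. The strongest in the control list alone was chr18:61561978-61562340, with −log10 q of 6.52 and a pileup of 35. The strongest in the Scd1-deficient list and not the control list was chr18:61593354-61593661, with −log10 q of 5.23 and a pileup of 20, and it overlapped regions of both DN3 lists. In DN3 cells the control list alone held chr18:61579439-61579754, with −log10 q of 2.71.

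Btrc, which encodes the beta-TrCP subunit that recognises phosphorylated beta-catenin, had the most DN3-restricted regions of the 10 genes. Its lower-end region (chr19:45363268-45364377) was level, with folds of 14.4, 15.1, 13.9 and 14.8, and ranked above 99.9%, 99.8%, 99.2% and 99.3% of its list. Of the other 14 joint regions, 9 were called in both DN3 lists and neither naive list, all inside the gene body. Regions covered 10764 and 10625 bp of the window in the DN3 libraries and 4014 and 3958 bp in the naive ones. At least 9 such DN3-restricted regions were found at 240 of 17284 genes, 1.39%. Btrc is a long gene with many regions: among the 781 genes with at least 15 joint regions, 45 (5.76%) had a DN3-restricted share as high. These limits were set from the Btrc counts themselves, so the shares give its rank and are no test.

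**Figure D4:**
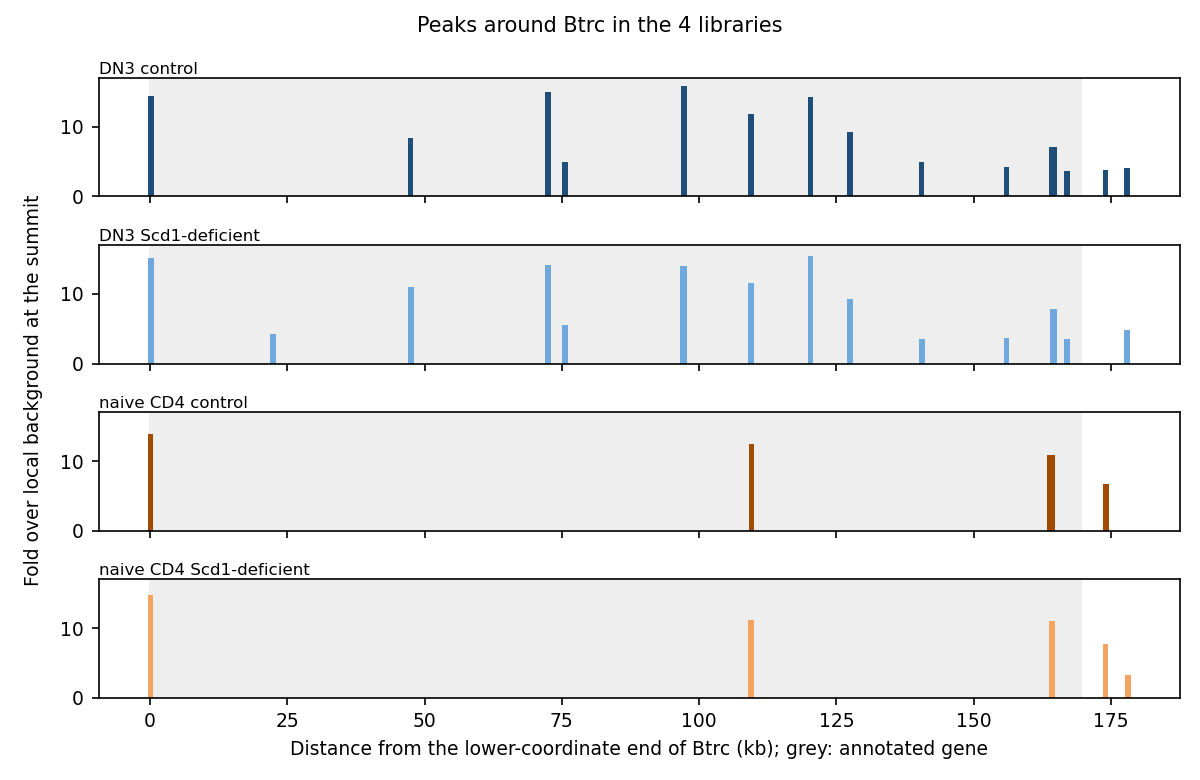
Peaks around Btrc in the 4 libraries, by distance from the lower-coordinate end of the gene (horizontal, kb; grey marks the gene body) and fold over local background at the summit (vertical, bars from 0). Between 25 and 160 kb the DN3 libraries share 9 bars and the naive libraries 1, at about 110 kb.

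The DN3-restricted regions of Btrc included strong ones. At chr19:45460289-45461440 the fold was 15.8 in the control and 14 in the Scd1-deficient DN3 library, with pileups of 259 (228 to 293) and 200 (173 to 229.7) and −log10 q of 211 and 154. At chr19:45483595-45484374 the folds were 14.3 and 15.4 and −log10 q 130.2 and 122. At chr19:45435994-45436342 the folds were 15.0 and 14.1 and −log10 q 73.4 and 62.4. The fold at these 3 was close to that at the Btrc gene end, 14.4 and 15.1. The median −log10 q of the 9 regions was 35.2 and 37.2, against 19.9 and 17.0 for all DN3-restricted regions of the genome. The smallest pileup that entered the naive lists among their 200 weakest regions was 14 and 11, on backgrounds of 5.12 and 3.65.

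The genotypes were close at Btrc. No shared region was past 1.5-fold in either cell type. In DN3 cells the control list alone held chr19:45537441-45537936, above the gene, with a fold of 3.79, a pileup of 92 and −log10 q of 24.4; both naive lists held it as well, with folds of 6.78 and 7.75. The DN3 Scd1-deficient list alone held chr19:45385797-45386323, with a fold of 4.2 and −log10 q of 7.38. In naive cells the Scd1-deficient list held chr19:45541589-45541975 (fold 3.30, −log10 q 11.9), which both DN3 lists also held, with folds of 4.02 and 4.77. A region shared by all lists inside the gene, chr19:45472668-45473722, had folds of 11.8, 11.6, 12.4 and 11.2.

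Porcn, the acyltransferase that loads the fatty acid onto Wnt, had 2 joint regions, both in all 4 lists. The one at its lower end (chrX:8192129-8193670) overlapped the neighbour Ebp and was level, with folds of 12.3, 12.1, 12.4 and 12.1. The one at its higher end (chrX:8205903-8206880) was not. Its fold was 11.9 and 11.2 in the DN3 libraries, 3.76 in the naive control and 6.23 in the naive Scd1-deficient library. The pileups were 95 (76.9 to 116), 82 (65.2 to 102), 22 (13.8 to 33.3) and 28 (18.6 to 40.5), and −log10 q 68.9, 58.0, 6.29 and 14. The counting intervals of the DN3 pileups did not overlap those of the naive ones, while those of the 2 naive pileups overlapped each other. Pileups also depend on the depth of each library, and the background was 7.07, 6.38, 5.12 and 3.65.

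The centred DN3 to naive ratio at that Porcn region was 3.11 in control mice, and 0.735% of all shared regions lay at least as far from 1. In Scd1-deficient mice it was 1.91, with 6.07% as far. Between genotypes in naive cells the centred ratio was 1.52, just past the limit, with 2.43% of shared regions as far, and in DN3 cells it was 0.951. Just outside the Porcn window, 10227 and 10222 bp from the gene, the DN3 control and Scd1-deficient lists held a region with −log10 q of 7.67 and 9.58 that the naive lists did not.

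Wls, the carrier that takes acylated Wnt to the surface, had 5 joint regions, and its start region was the single one seen in naive cells. At the start (chr3:159839471-159842147) the fold was 6.97, 7.69, 6.89 and 7.26, and the pileups were 183, 183, 173 and 101. The other 4 regions were called in both DN3 lists and neither naive list. Among 6917 genes with at least 5 joint regions, 146 (2.11%) had a DN3-restricted share as high. This limit was set from the Wls counts themselves, so the share is no test. The narrow region at the far end, chr3:159939400-159939625, had the highest fold of the 90 regions in DN3 cells, 19.6 and 18.8, with pileups of 111 and 102. It measured 225 and 222 bp, less than the 275 bp of the narrowest naive control region. The DN3-restricted region at chr3:159857186-159857421 was also below that width, at 236 and 222 bp, with −log10 q of 13.0 and 5.35. Regions this narrow could not enter the naive control list, so their absence from it is not informative. Inside the gene, chr3:159884922-159886291 had folds of 8.22 and 9.13 and −log10 q of 27.5 and 31.6. No Wls region was restricted to 1 genotype of a cell type.

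**Figure D5:**
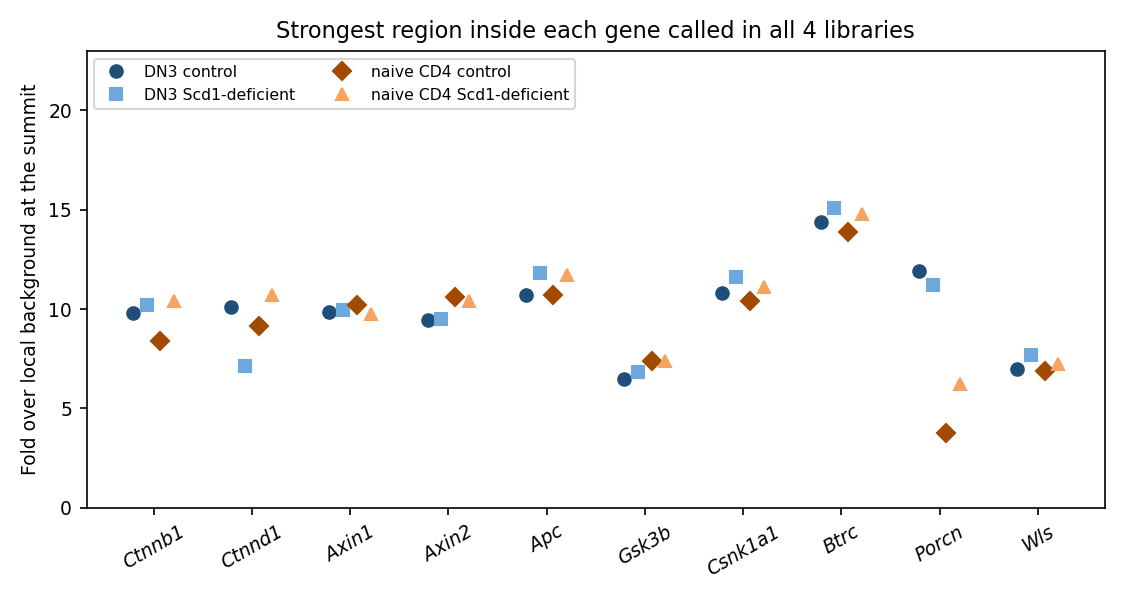
Fold over local background at the summit (vertical, from 0) of the strongest region by −log10 q that overlaps each gene body and was called in all 4 libraries, 1 point per library. Porcn is the gene where the DN3 libraries (11.9 and 11.2) stand well above the naive ones (3.76 and 6.23); Btrc has the highest points, 13.9 to 15.1.

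The rest of the pathway gives the setting for these genes. Of 113 other Wnt genes with coordinates, 81 (71.7%) had a region within 1 kb of a gene end in all 4 lists, beside 56.1% of all protein-coding genes, 22 (19.5%) in both DN3 lists only, beside 7.57%, and 0 in both naive lists only, beside 0.347%. No list held one at 4 of them (3.54%), beside 31.8%. Of the cytoplasmic relay genes 21 of 22 were in all 4 lists, and of the nuclear partners of beta-catenin 15 of 16, beside 7 of the 10 genes. Among the ligands 11 of 19 were in all 4 lists and 6 in the DN3 lists only, and among the receptors 8 and 3 of 13. Among the secreted inhibitors 3 of 11 were in all 4 lists and 5 in the DN3 lists only. Among the acyltransferase relatives of Porcn and the genes that recycle Wls, 13 of 14 were in all 4 lists.

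The gene-end call of these other genes differed between genotypes at 2 of 113 in DN3 cells (1.77%, beside 2.02% of all genes) and at 4 of 113 in naive cells (3.54%, beside 2.30%). With every list at 46576 regions the DN3 share was 7.08%, beside 1.98%. In DN3 cells Rspo2, a secreted enhancer of Wnt signals, was in the control list only (−log10 q 6.31) and Sfrp1, a secreted Wnt inhibitor, in the Scd1-deficient list only (3.51). In naive cells all 4 were in the longer Scd1-deficient list only: the receptors Fzd6 (5.91) and Ryk (8.15), the inhibitor Dkk4 (9.75) and the nuclear partner Pygo1 (4.53). Each of those 4 had a region in both DN3 lists, with −log10 q of at least 24.2.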

How the data were processed

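Each of the 4 ATAC-seq libraries came with 1 peak list. Per the submitters' processing notes, Trimmomatic, BWA and MACS2 were used with mm10; their versions, the filters and any shift of insertion sites were not stated in the labels. The deposited columns hold a score, the fold over local background at the summit (a ratio), and −log10 p-values and q-values. The authors called peaks per library. The total read depth is unknown.

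Regions on chromosomes 1 to 19 and X were merged across lists where they overlapped by at least 1 bp, with Python 3.11.15, pandas 2.3.3, numpy 2.4.6 and scipy 1.17.1. The summit pileup was solved from fold and p-value; all 2000 peaks checked per list gave a whole number within 0.05. Shares carry Wilson 95% intervals and pileups exact Poisson 95% intervals. A fold was counted as different past 1.5-fold. No test across libraries was possible. Counts of joint regions by place used both annotated gene ends and the listed RefSeq starts. Counts of genes with a gene-end region used the annotated ends alone, and exons were not used here.

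The genes and lists were chosen with earlier results of these data known. Regions were named by a rule: the gene-end region, the strongest region elsewhere, the strongest DN3-restricted and naive-restricted region, each genotype-restricted region with −log10 q of at least 10 or a width of at least 500 bp (otherwise the strongest per direction), and each shared region past 1.5-fold with −log10 q of at least 10 in both lists. Other regions named, including the weaker shared ones past 1.5-fold, were chosen after their values were seen. Alternatives are in the closing section.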

Additional observations from a re-analysis of the deposited data

How the results depend on the processing

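No paired analysis was possible because each group had 1 library and the labels give no replicate numbers; for the same reason no replicate could be left out. Over 14 settings of the main counts and shares, 132 recomputed values stayed inside the counting interval, or within 1.5 times for counts, and 20 moved further. The share of all regions or genes at the same setting follows each value after "beside". With −log10 q of at least 5 in every list, the DN3 Scd1-deficient share without a counterpart was 3.23% beside 6.93%, and the share in both naive lists only was 0% beside 5.50%. With every list at the 46576 strongest regions, the DN3 control and Scd1-deficient lists held 48 and 45 regions of the 10 genes, the shares without a counterpart were 6.25% and 0% beside 6.72% and 6.53%, the share in both DN3 lists only was 19% beside 16.1%, the Btrc count was 6, and 7.08% of other Wnt genes differed between DN3 genotypes beside 1.98%, where the reported share was near its background. Over the gene body only, the naive Scd1-deficient list held 31 regions and the share past 1.5-fold between cell types in Scd1-deficient mice was 7.69% beside 23.4%. With 50 kb on either side the DN3 control and the naive lists held 113, 74 and 81 regions and the Btrc count was 14. Past 2-fold, the shares were 0% between genotypes in DN3 and in naive cells beside 0.0784% and 0.251%, and 8.33% and 2.50% between cell types in control and Scd1-deficient mice beside 8.70% and 8.44%. With −log10 q in place of the fold they were 15.6% beside 17.1% in DN3 cells, and 52.8% and 52.5% beside 57.0% and 51.6% between cell types. Peaks as narrow as 214 bp and pileups as low as 11 set the limit of what the lists can show.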
